A study of Rattus norvegicus with 9 samples.

Results

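The plasminogen activator system was followed through 4 genes of rat cardiac fibroblast cultures: the activators Plau and Plat, the receptor Plaur and the inhibitor Serpine2. They were taken by symbol from a table of 17337 genes, all 4 were present, and all 4 passed the filter on low counts that left 11337 genes for testing. Plau and Plaur were highest in adult cultures, Plat was highest in neonatal cultures, and Serpine2 fell from fetal to neonatal to adult cultures. Per kb of exon, Plat made up most of the activator mRNA in every fetal and neonatal library, though less so in fetal replicate 3, and Plau came close to Plat in the adult.

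RNA came from Sprague Dawley rats at embryonic day 18 (fetal), postnatal day 1 (neonatal) and 7 weeks (adult), with 3 libraries at each age. All groups were heart cells labelled P0 and as cardiac fibroblasts, expanded in flasks until confluent in DMEM with fetal bovine serum and added ascorbic acid, so the values describe cultured cells and not fresh tissue. No genotype, treatment or cell sort is given in the labels. Nothing in them says whether the libraries of an age came from separate animals or cultures. Each p-value therefore sets an age difference against the spread between these libraries, which may be technical.

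Plasminogen is a circulating proenzyme that plasminogen activators cleave to plasmin, a broad serine protease that dissolves fibrin and helps to activate matrix metalloproteinases and latent growth factors. Plau encodes urokinase (uPA), which works mainly at the cell surface bound to its receptor uPAR, the GPI-anchored product of Plaur. Plat encodes tissue-type plasminogen activator (tPA), which is most active when bound to fibrin, and Serpine2 encodes protease nexin-1, a serpin that inhibits thrombin, uPA, tPA and plasmin at cell surfaces and in matrix. In the heart this system is known for its part in fibrin removal and in matrix remodelling after injury.

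Promoter windows for 3 of the members, Plau, Plaur and Serpine2, were matched in RefSeq sequence of assembly GRCr8. Every matched window is shown, and none was matched for Plat. Each sequence is the 250 bases before the annotated start, written 5′ to 3′ on the gene's own strand, with capitals at the motifs that were found.
Plau (chr15:3511988-3512237, GRCr8, minus strand): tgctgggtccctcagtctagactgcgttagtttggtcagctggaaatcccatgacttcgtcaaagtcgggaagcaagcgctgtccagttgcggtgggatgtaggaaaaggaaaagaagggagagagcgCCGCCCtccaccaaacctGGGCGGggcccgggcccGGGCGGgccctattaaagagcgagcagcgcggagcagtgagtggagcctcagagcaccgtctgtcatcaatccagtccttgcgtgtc
Plaur (chr1:89181113-89181362, GRCr8, plus strand): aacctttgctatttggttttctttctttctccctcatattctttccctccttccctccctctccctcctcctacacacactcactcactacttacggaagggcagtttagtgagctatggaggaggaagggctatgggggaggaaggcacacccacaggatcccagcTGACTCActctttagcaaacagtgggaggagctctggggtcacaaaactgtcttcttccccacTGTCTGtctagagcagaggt
Serpine2 (chr9:88637203-88637452, GRCr8, minus strand): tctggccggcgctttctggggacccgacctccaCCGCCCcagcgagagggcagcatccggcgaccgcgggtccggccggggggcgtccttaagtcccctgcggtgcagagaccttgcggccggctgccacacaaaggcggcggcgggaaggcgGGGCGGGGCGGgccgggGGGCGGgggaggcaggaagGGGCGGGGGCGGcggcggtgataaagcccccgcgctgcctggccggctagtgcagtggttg

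Both strands were searched for 6 motifs. The TATA box was searched as TATAAA, and the GC box that Sp1 family factors bind as GGGCGG. For AP-1, the dimer of Fos and Jun proteins, the letters were TGANTCA, and for the cAMP response element they were TGACGTCA. The binding element of Smad proteins, which act downstream of TGF-beta, was searched as CAGACA, and NF-kB by its usual motif. The Plau window held 3 Sp1 matches and the Serpine2 window 6, of which 1 pair overlaps by 1 base, and 32.4% of all 27457 windows of this length hold at least 1. The Plaur window held no Sp1 match. It held 1 AP-1 match, at 83 to 77 bases before the start, and 1 Smad match on the other strand, and these motifs occur in 6.36% and 16.9% of windows. The Serpine2 window had the most G and C (76.8%), against 60% in Plau, 51.2% in Plaur and a median of 52% over all windows.

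Library totals ran from 13392825 to 22850491 counts, with the adult libraries lowest (13392825 to 13810825). Fetal replicate 3 stood apart from the other 2 fetal libraries, with a root mean square difference of 0.72 to 0.73 in log2 CPM over all tested genes, against 0.23 between replicates 1 and 2. Adult replicate 1 differed from adult replicates 2 and 3 by 0.45 and 0.53, against 0.38 between adult replicates 2 and 3. The neonatal pairs differed by 0.22 to 0.25. Of the marker lists used to check the label, all 9 fibroblast genes passed the filter, although Col1a2 averaged below 1 CPM at each age, and their summed levels were 26449 to 53090 CPM in fetal, 70542 to 76786 in neonatal and 26647 to 34571 in adult libraries. CPM here means counts per 1000000 after TMM scaling. The cultures also held other transcripts: the sum over 12 macrophage genes was 14.99 to 70.8 CPM in fetal, 166 to 183 in neonatal and 4182 to 5845 in adult libraries. The sum over 12 detected cardiomyocyte genes was 7672 to 11578, 5313 to 5877 and 306 to 320.1 CPM. Nearly all of the adult sum was Tnnt2 (309.6 CPM on average), and the next highest gene, Tnnc1, averaged 1.17 CPM there. The sum over 8 endothelial genes was 17.2 to 20.7, 23.6 to 28.9 and 92.3 to 108 CPM, of which Tie1 alone averaged 70.4 CPM in the adult while Kdr was lower there (0.901) than in neonatal (5.55) and fetal libraries (2.58). The sum over 6 mural genes was 588 to 1082, 1364 to 1436 and 196 to 356 CPM. In these bulk libraries fewer cells of a type and less RNA per cell cannot be told apart.

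Plau (chromosome 15, 3644296 to 3650765, rn6, minus strand) has 12 exon blocks of 1933 bases in the count table, and no other gene of the table has an exon within its span. Its levels were 16.7, 18.8 and 82.7 CPM in fetal replicates 1, 2 and 3, from 310, 426 and 1557 reads. They were 16.0, 12.4 and 14.05 CPM in the neonatal libraries and 170.4, 217 and 242 CPM in the adult libraries. Every adult library thus lay above every fetal and neonatal one, and fetal replicate 3 lay well above the other 2 fetal libraries.

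From neonatal to adult cultures Plau rose 14.9-fold, from 14.1 ± 1.80 to 209.7 ± 36.2 CPM (mean ± SD, n = 3; log2 3.89, SE 0.60, edgeR adjusted p = 0.000477). That SE rests on the spread over all 9 libraries, fetal replicate 3 included, and was 0.17 with only these 2 ages compared. From fetal to adult cultures Plau rose 5.33-fold from 39.4 ± 37.5 CPM (log2 2.41, SE 0.55, edgeR adjusted p = 0.00381). Without fetal replicate 3 the fetal mean was 17.8 CPM and the adult difference was log2 3.55 (edgeR adjusted p = 3.29e-07). All 3 neonatal libraries were below all 3 fetal ones, but the difference of -1.48 (95% interval -2.77 to -0.19 before adjustment) did not pass the threshold (edgeR adjusted p = 0.071). Without fetal replicate 3 that difference was -0.34 (edgeR adjusted p = 0.165). It passed without fetal replicate 1 (-1.84, edgeR adjusted p = 0.0295) or 2 (-1.82, edgeR adjusted p = 0.0371), and the adjusted p ran from 0.0295 to 0.185 over all alternatives.

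Plau and the macrophage markers were both highest in adult cultures, and in adult replicates 1, 2 and 3 the markers summed to 4182, 5104 and 5845 CPM beside Plau at 170.4, 217 and 242. Plat, Serpine2 and the fibroblast, mural and cardiomyocyte sums also rose in that order, whereas Plaur and the endothelial sum fell. All 12 macrophage genes were called higher in adult than in fetal and in neonatal cultures, against 34.9% and 31.6% of all tested genes. Between fetal and neonatal cultures 10 of the 12 markers were called higher in neonatal libraries, against 18.3% of all tested genes. The neonatal libraries held 166 to 183 CPM of these markers. Fetal replicates 1, 2 and 3 held 15.6, 14.99 and 70.8 CPM. Plau was lower in every neonatal library, but that difference did not pass the threshold (edgeR adjusted p = 0.071). Without fetal replicate 3 the Plau difference was log2 -0.34 (edgeR adjusted p = 0.165). Within the fetal group both the macrophage sum and Plau were highest in replicate 3. In that library a list of 10 epithelial genes, chosen after the values had been seen, summed to 421 CPM, against 24.0 and 27.0 in fetal replicates 1 and 2 and at most 6.60 in neonatal and adult libraries. In that list Sftpb and Sftpa1 had no count in any library. The part of either cell type in the Plau differences was not tested.

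**Figure D1:**
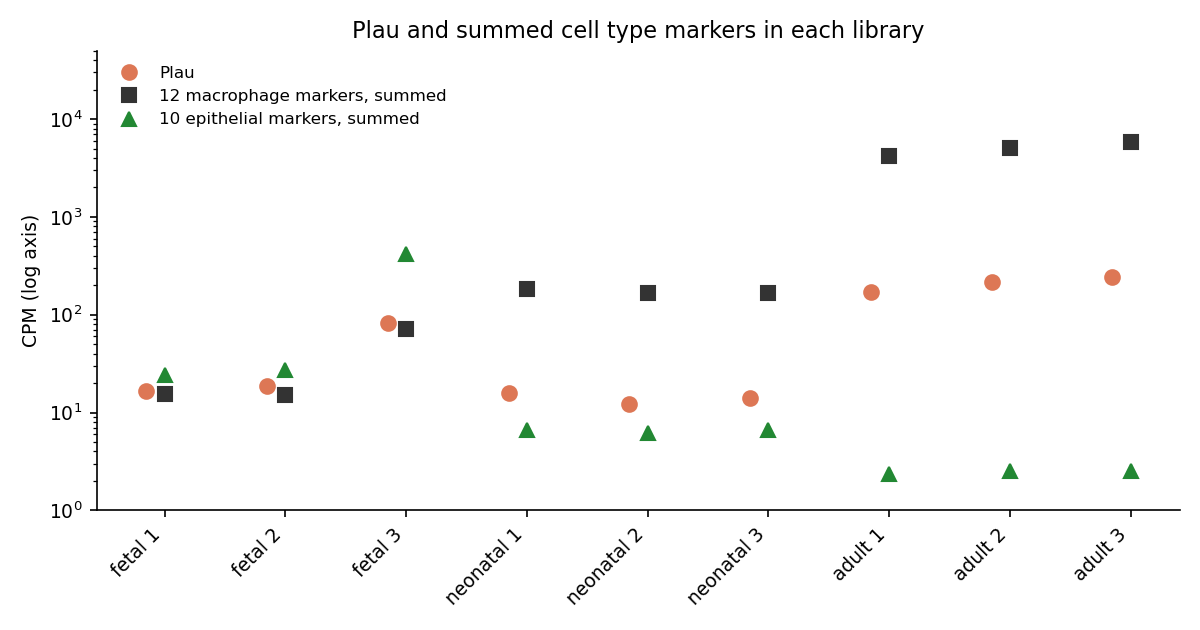
Plau (circles), the sum of 12 macrophage markers (squares) and the sum of 10 epithelial markers (triangles) in each of the 9 libraries, in TMM-scaled CPM on a log axis. Plau and the macrophage sum are both highest in the 3 adult libraries. Within the fetal libraries Plau and both marker sums are highest in replicate 3. The epithelial list was chosen after the values had been seen.

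Plat (chromosome 16, 74098268 to 74122858, rn6, minus strand) has 14 exon blocks of 2503 bases, with no exon of another gene inside its span. It was at 418, 417 and 231 CPM in the fetal libraries, at 634, 645 and 656 CPM in the neonatal libraries and at 250.3, 301 and 324 CPM in the adult libraries. The neonatal libraries were the highest without overlap, and fetal replicate 3 lay below all 3 adult libraries while the other 2 fetal libraries lay above them.

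Plat rose 1.82-fold from fetal (355 ± 108 CPM) to neonatal cultures (645 ± 11.4 CPM; log2 0.86, SE 0.21, edgeR adjusted p = 0.0118). It fell by 1.14 on the log2 scale from neonatal to adult cultures (292 ± 37.7 CPM; SE 0.21, edgeR adjusted p = 0.00109). The adult and fetal levels overlapped, with a log2 difference of -0.28 (95% interval -0.75 to 0.18, edgeR adjusted p = 0.238). That comparison turned on fetal replicate 3: without it the difference was -0.52 and passed the threshold (edgeR adjusted p = 0.000314). The sum over the 9 fibroblast markers was likewise lower in fetal replicate 3 (26449 CPM) than in fetal replicates 1 and 2 (53090 and 49932) and highest in the neonatal libraries. Most of this sum was Col1a1 and Col3a1. Among the 9 markers 3 were called higher and 3 lower in adult than in neonatal cultures, against 31.6% and 31.8% of all tested genes. The higher ones included Dcn (58.2 ± 0.764 to 353 ± 121 CPM). The part of these cells in the Plat differences was not tested.

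**Figure D2:**
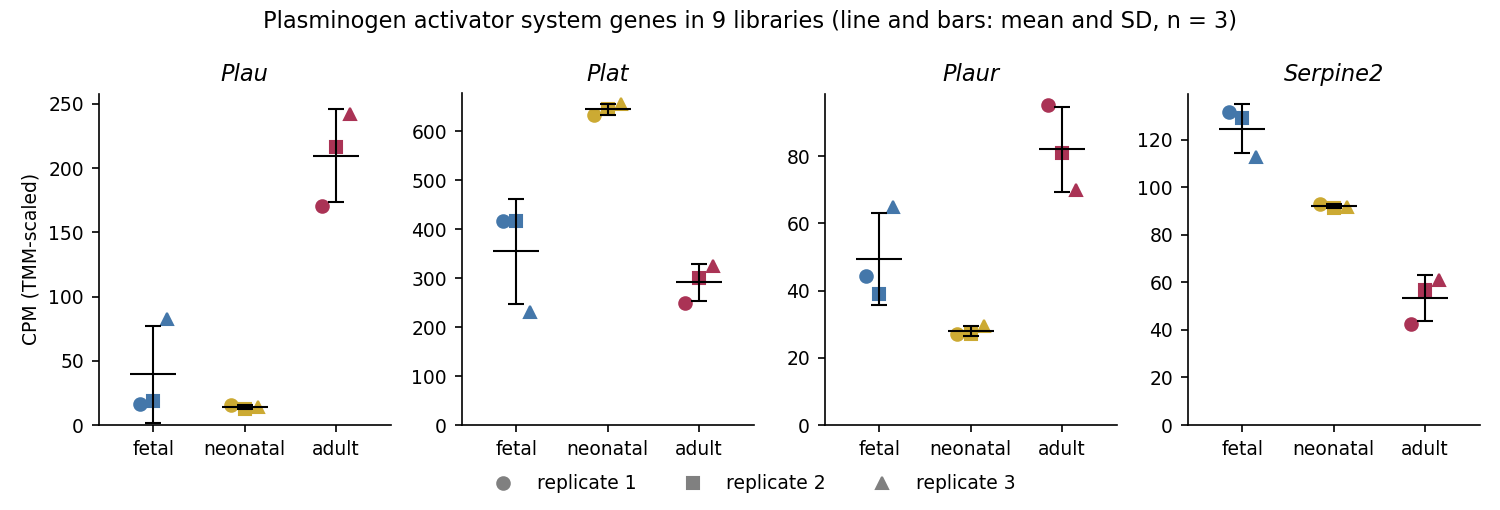
TMM-scaled CPM of the 4 genes in each library by age, with a linear axis from 0 in each panel; symbols mark replicates, and the line and bars give the mean and SD (n = 3). Plat peaks in the neonatal libraries, Plau and Plaur are lowest there, and Serpine2 steps down with age.

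To compare the activators with each other, levels were divided by exon length (CPM per kb). In fetal replicates 1 and 2 and in the neonatal libraries Plat exceeded Plau by 17.1 to 40.3 times per kb, and in fetal replicate 3 by 2.16 times. In the adult libraries the ratio of Plat to Plau was 1.13, 1.07 and 1.04. Plau thus made up 4.93%, 5.51% and 31.7% of the summed activator level in the fetal libraries. Its share was 2.42% to 3.16% in neonatal libraries, against 46.9% to 49.1% in adult ones. The sum of both was 162 ± 23.6 CPM per kb in fetal, 265 ± 4.11 in neonatal and 225 ± 33.8 in adult cultures. Its adult range (188 to 255) lay below the neonatal range (261 to 269) and above the fetal one (135 to 176). These sums and ratios are descriptions within a library and were not tested.

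**Figure D3:**
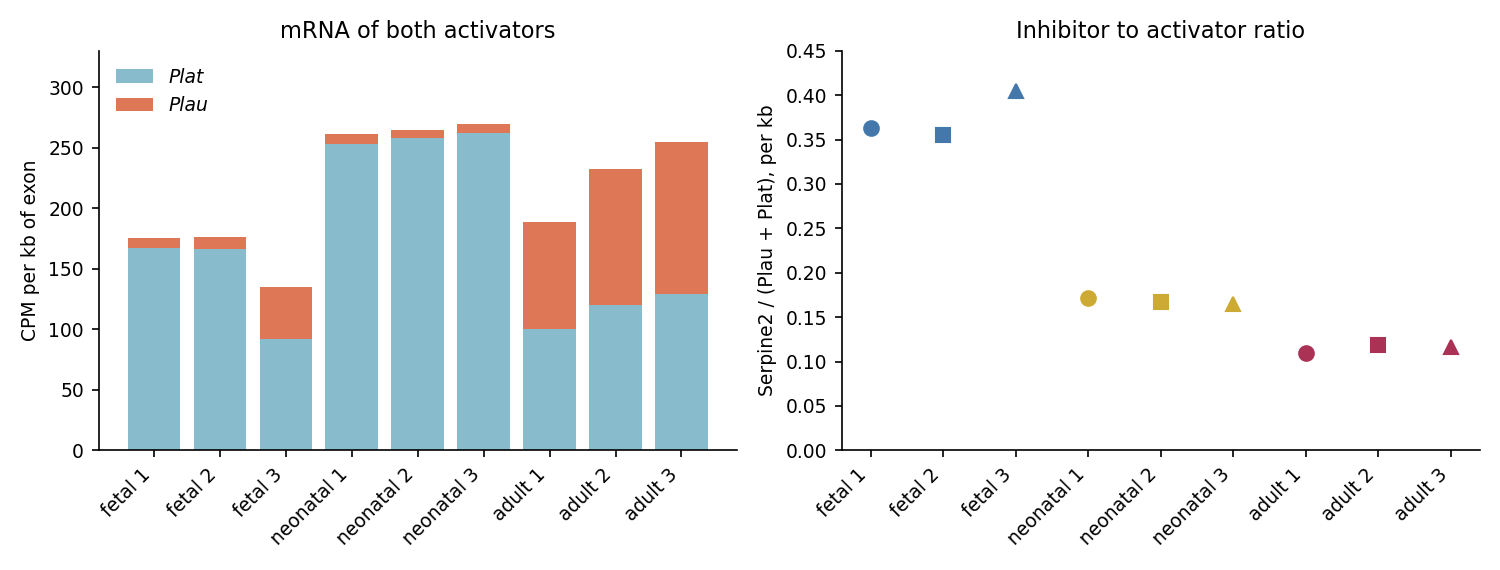
Left, stacked bars of Plat and Plau in CPM per kb of exon in each library; right, the ratio of Serpine2 to the sum of both activators per kb in each library. Plau takes 46.9% to 49.1% of the bar in adult libraries and at most 3.16% in neonatal ones, and the ratio is highest in the fetal libraries.

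Plaur (chromosome 1, 81328171 to 81344953, rn6, plus strand) has 8 exon blocks of 1208 bases, again with no exon of another gene inside its span. The receptor was at 44.2, 39.0 and 64.9 CPM in fetal, 27.2, 27.2 and 29.6 CPM in neonatal and 95.2, 80.9 and 69.9 CPM in adult libraries. The 3 ages did not overlap, and fetal replicate 3 came nearest to the adult range.

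Plaur fell 1.76-fold from fetal to neonatal cultures, with means of 49.4 ± 13.7 and 28.0 ± 1.38 CPM (log2 -0.82, SE 0.19, edgeR adjusted p = 0.00934). It then rose 2.93-fold to 82.0 ± 12.7 CPM in the adult (log2 1.55, SE 0.19, edgeR adjusted p = 9.11e-05), a level 1.66-fold above the fetal one (log2 0.73, SE 0.18, edgeR adjusted p = 0.00542). These differences had the signs of those of Plau. They were smaller in size, except that without fetal replicate 3 the difference between neonatal and fetal cultures was -0.57 for Plaur and -0.34 for Plau. Within the adult libraries Plaur was highest in replicate 1, where Plau and the macrophage sum were lowest. Within the fetal libraries Plaur, Plau and the macrophage sum were all highest in replicate 3. The part of macrophages in the Plaur differences was not tested. Per kb, the ratio of receptor to urokinase mRNA was 1.25 to 4.23 in fetal, 2.73 to 3.52 in neonatal and 0.46 to 0.89 in adult libraries, so the receptor exceeded urokinase in every fetal and neonatal library and in no adult one.

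Serpine2 (chromosome 9, 85560853 to 85626094, rn6, minus strand) has 9 exon blocks of 2062 bases and no exon of another gene inside its span. The inhibitor was at 132, 129 and 113 CPM in fetal, 92.7, 91.1 and 91.8 CPM in neonatal and 42.4, 56.7 and 60.9 CPM in adult libraries. The ages followed each other downward without overlap, and the neonatal libraries lay closest together.

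Serpine2 fell 2.33-fold from fetal (125 ± 10.2 CPM) to adult cultures (53.3 ± 9.69 CPM; log2 -1.22, SE 0.12, edgeR adjusted p = 1.78e-05) and 1.72-fold from neonatal (91.9 ± 0.834 CPM) to adult cultures (log2 -0.78, SE 0.12, edgeR adjusted p = 0.00042). The step from fetal to neonatal cultures was smaller, with a log2 difference of -0.44 (SE 0.12, edgeR adjusted p = 0.0204). That call was lost without fetal replicate 1 (-0.40, edgeR adjusted p = 0.0558), fetal replicate 2 (-0.41, 0.0533) or neonatal replicate 1 (-0.44, 0.069), 2 (-0.43, 0.0743) or 3 (-0.43, 0.0751), and was kept without fetal replicate 3 (-0.50, edgeR adjusted p = 0.0079). The cardiomyocyte marker sum fell over the same ages, and its part in the Serpine2 difference was not tested. The ratio of Serpine2 to the 2 activators together was 0.36, 0.36 and 0.41 per kb in fetal, 0.17 in each neonatal library and 0.11 to 0.12 in adult ones.

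The order of the 4 genes per kb was therefore reshuffled with age. In neonatal libraries it ran from Plat (258 ± 4.54 CPM per kb) through Serpine2 (44.6 ± 0.404) and Plaur (23.2 ± 1.14) to Plau (7.31 ± 0.932), without overlap. In adult libraries Plat (117 ± 15.1) and Plau (108 ± 18.7) overlapped at the top, followed by Plaur (67.9 ± 10.5), and Serpine2 (25.9 ± 4.70) came last. The fetal order of means was that of the neonatal libraries, but in fetal replicate 3 Serpine2 (54.7), Plaur (53.7) and Plau (42.8) lay close together.

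Of the 4 genes, 3 passed the threshold between neonatal and fetal cultures (1 higher, 2 lower), where 36.3% of all 11337 tested genes did. Between adult and fetal cultures 3 passed (2 higher, 1 lower), against 70.5% of all genes, and between adult and neonatal cultures all 4 did (2 higher, 2 lower), against 63.5%. The libraries did not overlap for 4, 3 and 4 members in these comparisons, against 57.4%, 71.8% and 76.1% of all genes. With any difference among the ages as the test, all 4 passed (edgeR adjusted p from 5.45e-05 for Serpine2 to 0.00159 for Plat), as did 77.6% of all genes. The comparisons share libraries and are not independent. Of the 4114 genes called between neonatal and fetal cultures 50.4% were higher. When scaled by library size alone, 4685 genes were called and 29.0% of those were higher. Among all tested genes, the size of the Plau difference between adult and neonatal cultures exceeded that of 94.6% of them. This was the highest such share of the 12 member differences, and the lowest was 25.4%, for Plat between adult and fetal cultures.

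**Figure D4:**
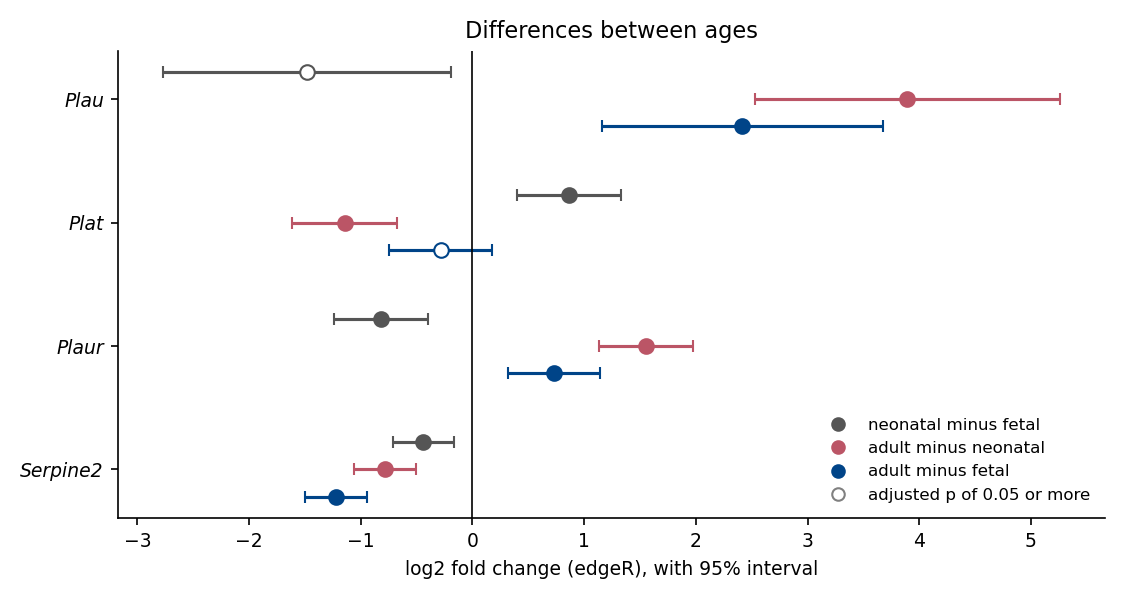
Log2 fold change of each gene in the 3 pairs of ages, with 95% intervals before adjustment; filled circles passed an edgeR adjusted p of 0.05 and open circles did not. The open circles are Plau between neonatal and fetal and Plat between adult and fetal cultures, and the longest intervals are those of Plau. All intervals rest on the spread over all 9 libraries, fetal replicate 3 included.

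The other genes of the pathway were taken from 4 lists of 49 genes in all, of which 46 were in the table and 34 were tested. Between neonatal and fetal cultures 16 of the 34 rose and 5 fell, against 18.3% and 18.0% of all tested genes. Between adult and fetal cultures 17 rose and 9 fell (34.9% and 35.5% of all genes), and between adult and neonatal cultures 14 rose and 12 fell (31.6% and 31.8%). Without fetal replicate 3 the counts were 16 and 9, 20 and 12, and 18 and 13, while the share of all tested genes called, in either direction, was 40.6%, 74.8% and 72.2%. The median log2 differences over the 34 were 0.22, 0.57 and 0.14, against -0.01 over all genes in each comparison.

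Of 8 other inhibitors 4 were tested. Between neonatal and fetal cultures 1 rose and 1 fell, and in each adult comparison 2 rose and none fell, with medians of 0.46, 1.12 and 1.01 on the log2 scale. Serpinf2, 1 of the 2 that rose, averaged only 0.367, 0.733 and 1.65 CPM in fetal, neonatal and adult cultures. Its call between adult and neonatal cultures was lost without neonatal replicate 1 or 2 or adult replicate 2 (edgeR adjusted p up to 0.0918). Serping1, which encodes the C1 inhibitor, a serpin of complement and contact proteases, rose at each step, with means of 3.97 ± 0.588, 18.6 ± 0.339 and 1538 ± 836 CPM from the youngest to the oldest cultures (edgeR adjusted p = 4.72e-07 for adult against fetal). Serpini1, encoding the tPA inhibitor neuroserpin, was lower in neonatal (1.11 ± 0.124 CPM) than in fetal cultures (3.50 ± 1.12 CPM; edgeR adjusted p = 0.0211), a call lost without fetal replicate 2 or any 1 neonatal library (up to 0.0783). Serpina5 had no read in any library.

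Plasminogen itself (Plg) was tested but did not exceed 1.37 CPM in any library. Of 5 tested genes in its list, 1 rose and 1 fell between neonatal and fetal cultures, and 3 rose and none fell in each adult comparison (medians -0.21, 0.63 and 0.36). Plgrkt, which encodes a transmembrane plasminogen receptor, rose stepwise from 16.5 ± 0.65 through 22.6 ± 0.621 to 28.9 ± 1.84 CPM (edgeR adjusted p = 0.00313 for the first step and 0.00369 for the second). Eno1, a glycolytic enzyme that also binds plasminogen at cell surfaces, fell from 158 ± 15.2 to 122 ± 1.63 CPM around birth and was highest in the adult at 245 ± 22.5 CPM (edgeR adjusted p = 0.0108 and 1.23e-05). S100a10, a subunit of the annexin A2 complex that binds tPA and plasminogen, rose from 232 ± 8.75 CPM in neonatal to 442 ± 60.8 in adult cultures (edgeR adjusted p = 0.0104). Its partner Anxa2 was at 1198 ± 151, 1188 ± 42.1 and 1303 ± 37.4 CPM and passed in no comparison (edgeR adjusted p from 0.247 to 0.931), except with fetal replicate 3 left out, when both adult comparisons passed.

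The clearance and surface partners (15 tested of 18) gave 9 higher and 1 lower between neonatal and fetal, 7 and 6 between adult and fetal, and 4 and 7 between adult and neonatal cultures, with medians of 0.66, 0.27 and -0.46. Lrp1, the endocytic receptor that removes protease and serpin complexes, was at 836 ± 354, 1548 ± 69.6 and 1848 ± 179 CPM and rose from fetal to adult cultures (log2 1.15, edgeR adjusted p = 0.00609). Its chaperone Lrpap1 rose over the same span from 77.9 ± 10.0 to 136 ± 8.07 CPM (edgeR adjusted p = 4.79e-05). Itgb3, the beta chain of the vitronectin receptor that pairs with uPAR, peaked in neonatal cultures like Plat, at 37.5 ± 5.92, 125 ± 4.10 and 22.6 ± 2.67 CPM (edgeR adjusted p = 2.25e-05 for the rise and 4.15e-07 for the fall). Igf2r, which binds uPAR and plasminogen, fell from 1529.98 ± 317 CPM in fetal to 629.8 ± 137 CPM in adult cultures (edgeR adjusted p = 0.000161).

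Itgam and Itgb2, the chains of the leukocyte integrin Mac-1 that binds uPAR, reached 187 ± 7.16 and 649.6 ± 74.1 CPM in adult cultures from at most 7.32 and 12.8 CPM on average at the earlier ages. Itgam and Mrc1, which was higher at each step too, are also among the 12 macrophage markers, so they give no separate information on that list.

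Among upstream proteases and substrates (10 tested of 16), 5 rose and 2 fell between neonatal and fetal, 5 rose and 3 fell between adult and fetal, and 5 rose and 5 fell between adult and neonatal cultures. The medians were 0.25, 0.95 and -0.06, and with genes of at most 3 reads at an age set to their bound or left out 0.52, 0.95 and -0.06. Ctsb, encoding cathepsin B, which can activate pro-urokinase, stood at 4322 ± 113 CPM in adult cultures, above neonatal (778 ± 0.622) and fetal ones (542 ± 12.4; edgeR adjusted p = 3.43e-09 for adult against fetal). Pdgfc, a growth factor that tPA activates by cleavage, fell from 20.5 ± 3.05 through 5.01 ± 0.336 to 1.28 ± 0.455 CPM (edgeR adjusted p = 0.000111 and 8.10e-05 for the 2 steps). F2rl1, the protease-activated receptor PAR2, fell from 33.2 ± 2.83 through 2.28 ± 0.747 to 0.396 ± 0.0785 CPM (edgeR adjusted p = 6.48e-06 and 0.000112). The thrombin receptor gene F2r, whose protease Serpine2 inhibits, was lower in adult (283 ± 41.0 CPM) than in fetal cultures (459 ± 138; edgeR adjusted p = 0.0135), although the libraries overlapped. Transcripts of thrombin (F2) and of the 3 fibrinogen chains Fga, Fgb and Fgg did not exceed 3 reads in any library.

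**Figure D5:**
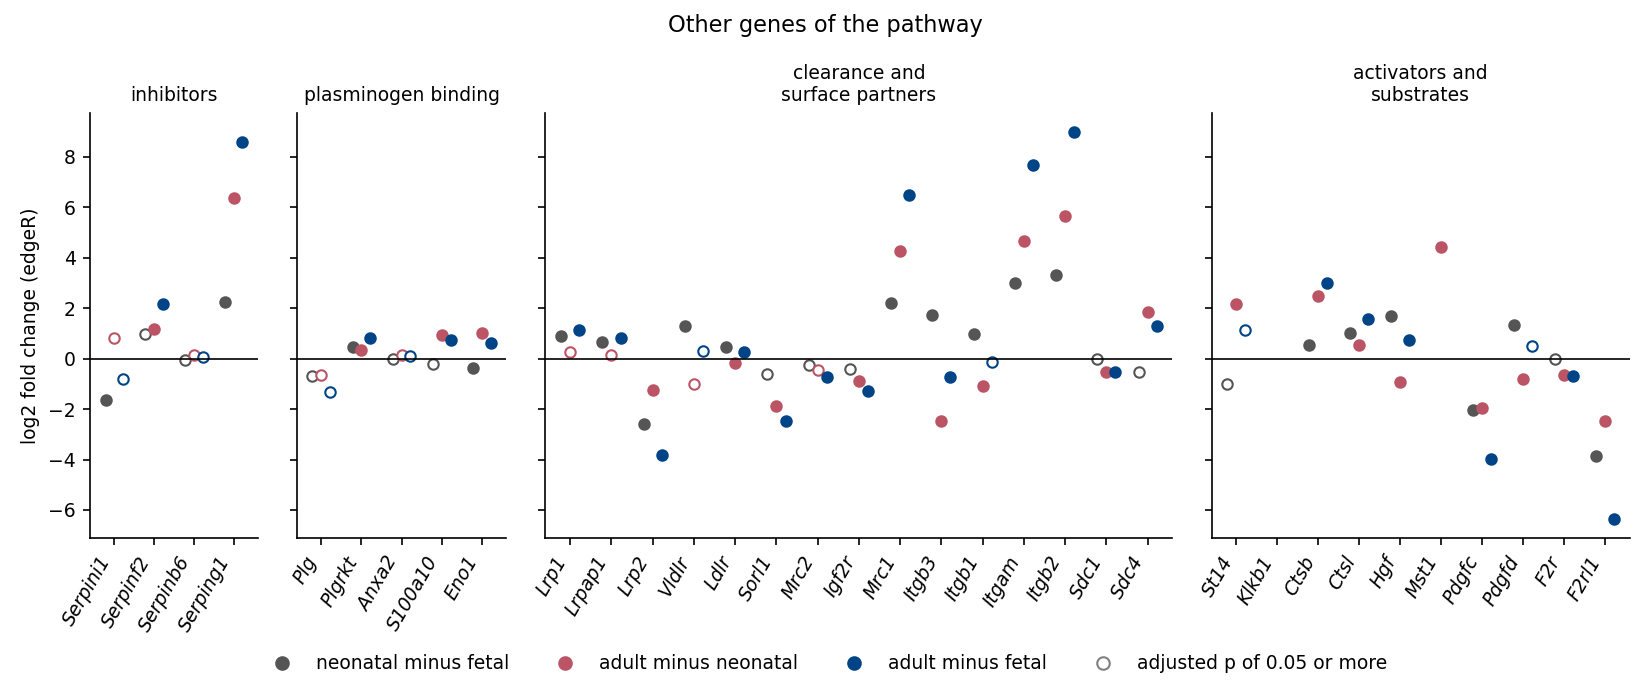
Log2 fold changes of the 34 tested genes of the 4 pathway lists in the 3 pairs of ages; filled circles passed an edgeR adjusted p of 0.05 and open circles did not. For Klkb1 and Mst1, 5 of the 102 points rest on an age with at most 3 reads per library and are left out; Serping1, Itgam and Itgb2 lie highest and F2rl1 lowest in adult against fetal cultures.

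The genes whose course over the 9 libraries was nearest to each member were found by the root mean square difference of centred log2 CPM among 8943 other genes. For Plau these were Arhgdib (0.33), Fgd3 (0.36) and Arhgap22 (0.37). Arhgdib was at 28.5 ± 20.6, 18.3 ± 0.891 and 195 ± 27.8 CPM in fetal, neonatal and adult cultures. For Plat they were RGD1308428 (0.086; Garre1 in RefSeq), Sparc (0.11) and Smpdl3b (0.12), and the matrix protein gene Sparc was at 7259 ± 2314, 14195 ± 71.1 and 7148 ± 764 CPM. For Plaur they were Alcam (0.14), Ets2 (0.16) and Mif (0.17), and for Serpine2 C2cd3 (0.086), Pop1 (0.094) and Rttn (0.095). Plau was thus farther from its nearest gene than the other 3 members. Without fetal replicate 3 Arhgdib ranked 3 for Plau, Arhgap22 10 and Fgd3 24. For Plat, Smpdl3b then ranked 1, RGD1308428 3 and Sparc 5. None of the 3 genes named for Plaur (ranks 6, 12 and 11) or for Serpine2 (6, 9 and 8) was then among the nearest 3. Among the members, Plat and Serpine2 were the nearest pair (0.60) and Plau and Plat the farthest (2.23). The measure depends on the size of differences as well as on their direction. Plat rose and Serpine2 fell from fetal to neonatal cultures, while Plau and Plaur, whose differences shared signs, were 1.15 apart. These are descriptions over libraries that fall into 3 ages, with no test.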

How the data were processed

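The series holds 9 bulk RNA-seq libraries of cultured rat cardiac fibroblasts, 3 at each of 3 ages, grouped by their titles. The authors deposited raw read counts per gene, made with featureCounts 1.6.3 on an rn6 annotation with only annotation and output options given, per the file headers. By that program's defaults, strand was not used and reads mapping to several places were not counted. Trimmomatic 0.39 and STAR 2.5.2b are named without a role in the submitters' processing notes. A second table of normalized signal values, deposited by the authors, equalled these counts divided by 1 size factor per library (largest deviation 4.96e-05% in adult replicate 2) and entered no test.

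The filter filterByExpr of edgeR 4.0.16 (R 4.3.3) left 11337 of 17337 genes of the count table. After TMM scaling, 1 quasi-likelihood model per gene, with age as its only term and robust estimation, was fitted to all 9 libraries and tested with glmQLFTest. P-values were Benjamini-Hochberg adjusted over every tested gene, with 0.05 as the threshold. Standard errors come from the fold change and F statistic, and intervals from those and the test's degrees of freedom. CPM are counts per 1000000 TMM-scaled counts. CPM per kb divides by the deposited exon length. The script was tested on simulated data.

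The text names the 4 members, genes of 4 pathway lists, and for each member the 3 tested genes with at least 10 CPM in some age and the smallest root mean square difference of centred log2 CPM (prior count 2). Members and lists were chosen with earlier results of these data known. A gene of the inhibitor list is not reported here and was left out of its counts. The alternatives were DESeq2 1.42.0, its size factors in edgeR, library size alone, upper-quartile scaling, no filter, only the 2 ages compared, a replicate block and leaving out each library. Pathway genes were put through them, and means and likeness recomputed without fetal replicate 3, after the data had been seen. No pair of libraries of 1 age agreed within counting error (lowest chi-square per degree of freedom 2.09). Promoter sequences are from RefSeq on GRCr8.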

Additional observations from a re-analysis of the deposited data

How the results depend on the processing

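Over 16 alternatives, 9 of the 12 member differences kept their direction and side of the threshold, and no difference changed sign. The Plau difference between neonatal and fetal cultures passed with library size alone (log2 -1.71, edgeR adjusted p = 0.0488) and with DESeq2 (-1.49, DESeq2 adjusted p = 0.0446), and ran from -1.84 to -0.34 with 1 library left out. That of Serpine2 ran from -0.50 to -0.40 and that of Plat between adult and fetal cultures from -0.52 to -0.16. Genes called between neonatal and fetal cultures numbered 2476 to 4679 with 1 library left out, against 4114. With library size alone the median of all genes was -0.18 in that comparison and -0.12 between adult and fetal cultures, against -0.01 in both with TMM.

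Among pathway genes that did not pass in all 9 libraries, some signs changed. With 1 library left out, the difference between neonatal and fetal cultures ran from -0.39 to 0.20 for S100a10, from -1.37 to 0.073 for St14, from -0.073 to 0.097 for Anxa2 and from -0.26 to 0.11 for F2r. That between adult and fetal cultures ran from -0.083 to 0.58 for Vldlr. S100a10, St14, Vldlr and Anxa2 changed sign without fetal replicate 3, and Anxa2 also without neonatal replicate 2 or 3. F2r changed sign without fetal replicate 1 or 2 and with the replicate block (0.013). Calls of Lrp1 and Vldlr between neonatal and fetal cultures, and of S100a10 between adult and fetal cultures, were lost under several alternatives (adjusted p up to 0.102, 0.0848 and 0.098).

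Replicate numbers are shared between ages, but same-numbered libraries did not deviate together (correlations of deviations from -0.06 to 0.05, 0 of 9 above 0.1). The replicate block gave 3713, 7801 and 6985 called genes in place of 4114, 7987 and 7197, and no member call changed. The ratio of Serpine2 to the activators does not depend on scaling. Each member had at least 217 reads in every library, whereas Plg had at most 31.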
